A study of Homo sapiens with 12 samples.

Results

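The response to ML210 was measured in the libraries labelled SK-N-AS, a human neuroblastoma cell line. The libraries were chosen by their labels: 3 received ML210 and 3 were controls, which makes 6 of the 12 samples of the series, and they are paired by a batch number from 1 to 3. The other 6 samples are the same design labelled SK-N-BE(2). Cells of both lines were labelled wild type and cultured overnight. The sources used here do not give the dose of ML210 or what the controls received. The series describes SK-N-BE(2) as carrying amplified MYCN and SK-N-AS as not carrying it, and there is 1 line of each kind.

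ML210 blocks GPX4 by binding covalently to it, and GPX4 is the enzyme that turns lipid hydroperoxides in membranes into harmless alcohols. When GPX4 is blocked, iron-catalysed lipid peroxidation can run on and kill the cell, a form of death called ferroptosis. Electrophiles and oxidants also release the transcription factor NRF2 (gene NFE2L2) from its repressor KEAP1, and NRF2 then binds antioxidant response elements in front of genes for quinone reduction, glutathione synthesis, NADPH supply and iron storage. Metallothioneins are small cysteine-rich proteins that bind zinc and copper, and their genes are switched on through metal response elements by the zinc sensor MTF1.

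The labels and MYCN run against each other. MYCN is a transcription factor whose amplification is a marker of high-risk neuroblastoma. It stood at 3457, 3521 and 3692 CPM (read counts scaled to library size) in control libraries 1, 2 and 3 labelled SK-N-AS. In the ML210 libraries of that label it stood at 3907, 3932 and 3721 CPM. In all 6 libraries labelled SK-N-BE(2) it was at or below 0.24 CPM. Every library therefore has the MYCN level described for the line that its label does not name, and the groups below are called by their labels only. The ML210 change of MYCN was 0.12 on the log2 scale (adjusted p = 0.913 with all 12 libraries).

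The sequences in front of MT1X, MT2A, GCLM, ME1 and AIFM2 are printed because they hold motifs that the metallothionein and antioxidant pathways are known to use. AIFM2 is on the list of ferroptosis suppressors, not on those of NRF2 targets. Promoter windows of 300 bases (250 before and 50 after the start) were taken from RefSeq on GRCh38.p14, and only the 250 bases before the start are printed, on the strand of the gene. The antioxidant response element was searched as TGACNNNGC and the metal response element as TGCACNC or TGCGCNC, on both strands. Capitals mark the metal response element letters in MT1X and MT2A, and the antioxidant response element letters in the other genes. Matches of the other motif are left in small letters: an antioxidant match in MT1X and in MT2A, and a metal match in GCLM. The antioxidant match in MT2A has the same letters as that in ME1. Of 5 metallothionein windows, 3 held the antioxidant motif.
MT1X (chr16:56682220-56682469, plus strand): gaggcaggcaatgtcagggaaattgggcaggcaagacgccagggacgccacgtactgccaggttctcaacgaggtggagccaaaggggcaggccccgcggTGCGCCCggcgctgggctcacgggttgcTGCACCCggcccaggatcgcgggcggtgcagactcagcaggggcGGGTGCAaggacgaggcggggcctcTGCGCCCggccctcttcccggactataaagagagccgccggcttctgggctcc
MT2A (chr16:56608334-56608583, plus strand): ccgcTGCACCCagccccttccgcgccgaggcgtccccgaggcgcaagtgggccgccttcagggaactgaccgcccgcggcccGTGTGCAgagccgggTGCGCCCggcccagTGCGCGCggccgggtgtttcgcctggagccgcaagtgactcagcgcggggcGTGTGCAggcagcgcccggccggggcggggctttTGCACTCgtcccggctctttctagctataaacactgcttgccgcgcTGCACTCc
GCLM (chr1:93909431-93909680, minus strand): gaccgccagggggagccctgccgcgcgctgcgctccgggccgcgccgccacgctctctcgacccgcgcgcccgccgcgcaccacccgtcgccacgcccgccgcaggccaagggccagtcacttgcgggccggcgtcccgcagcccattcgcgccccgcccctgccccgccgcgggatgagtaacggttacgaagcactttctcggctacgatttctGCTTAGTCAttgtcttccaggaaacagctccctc
ME1 (chr6:83431052-83431301, minus strand): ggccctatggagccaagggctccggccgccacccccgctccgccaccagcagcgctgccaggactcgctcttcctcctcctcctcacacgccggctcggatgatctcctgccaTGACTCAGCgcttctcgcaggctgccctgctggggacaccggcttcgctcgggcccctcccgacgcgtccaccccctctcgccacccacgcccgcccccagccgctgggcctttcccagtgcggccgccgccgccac
AIFM2 (chr10:70132826-70133075, minus strand): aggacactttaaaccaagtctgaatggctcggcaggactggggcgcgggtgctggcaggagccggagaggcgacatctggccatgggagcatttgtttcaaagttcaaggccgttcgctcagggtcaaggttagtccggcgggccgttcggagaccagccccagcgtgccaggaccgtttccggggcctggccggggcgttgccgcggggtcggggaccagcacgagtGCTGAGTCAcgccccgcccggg

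The window of MT1X held 4 metal motif matches and that of MT2A held 8, of which 7 lie in the printed stretch. Of all 35116 promoter windows in the table, 29.6% held at least 1 metal motif and 8.6% held 2 or more. For genes tested in the 6 libraries these shares were 36.8% and 11.5%, and the metal motif occurred in 33.8% of the windows of raised genes and 44.9% of those of lowered genes. The antioxidant motif occurred in 13.3% of all windows and 14.4% of those of tested genes. Among genes that the batch-blocked fit of the 6 libraries called raised, 82 of 110 had a window, and 27 of their 130 windows (20.8%) held the antioxidant motif. Among those called lowered, 85 of 112 had a window, and 19 of 136 windows (14%) held it. A window of RET and that of TLX2, both lowered genes, held it too. Of the raised NRF2 targets, GCLM, ME1, PIR and TXNRD1 had a window with it. It was not in the windows of NQO1, AKR1C3, GCLC, TKT, FTL, TRIM16, OSGIN1, SQSTM1 and SLC6A9, nor in that of CPT1A. A match describes the letters only. The 5 genes printed were chosen after their values were seen and because a match lay in the printed stretch.

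Library depth was 54047293 to 83481963 counted reads over the 6 libraries. All 13 adrenergic neuroblastoma markers were above 1 CPM in the mean, with a summed level of 9090 to 9680 CPM in controls and 8690 to 8930 CPM with ML210. Of 12 mesenchymal markers 9 were above 1 CPM, at a summed 392 to 476 and 385 to 457 CPM. Of 6 blood markers 2 were above 1 CPM, and HBB was at 0. Endothelial (4 of 6), epithelial (3 of 5) and Schwann cell markers (3 of 5) summed to between 7.75 and 39.3 CPM. A further 35 genes were picked because they were high under the other line label and low in these 6 libraries. Their median was 0.244, 1.57 and 1.39% of their level there in the controls of batches 1, 2 and 3. With ML210 it was 0.319, 1.06 and 1.59%. The choice of genes keeps these percentages low, so they do not measure how much RNA of the other line was present. Between the batches they can be compared, and they were lowest in batch 1 with both treatments. In bulk libraries fewer cells of a type and less RNA per cell cannot be told apart.

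The batch separated the libraries more than ML210 did. On the principal components of the 6 libraries, the first component held 50.7% of the variance and set batch 1 apart from batches 2 and 3. The second held 19% and set the 3 ML210 libraries apart from the 3 controls. Batch 1 differed by over 1.5 times from both other batches in 573 genes among the controls and 614 among the ML210 libraries, against 104 to 174 genes for batch 2 or 3. The comparison was therefore made with and without the batch as a block.

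**Figure D1:**
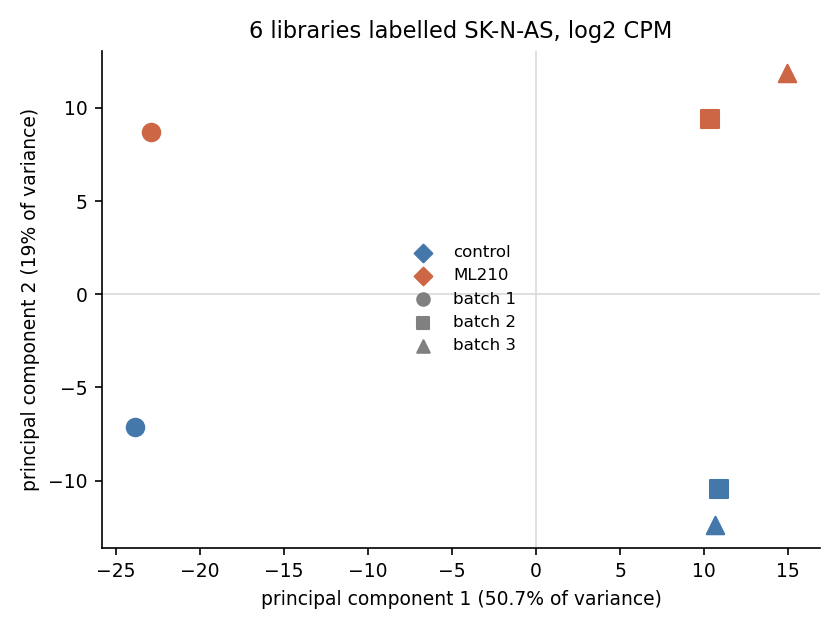
Principal components of log2 CPM in the 6 libraries labelled SK-N-AS, with component 1 (50.7% of variance) on the horizontal axis and component 2 (19%) on the vertical axis. Each point is a library, colour gives the treatment and shape the batch; batch 1 lies at the left, and the ML210 libraries lie above the controls in every batch.

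ML210 changed few genes by much. Over 13468 genes with a mean of at least 1 CPM, the median log2 change was -0.015 and the middle 90% lay between -0.23 and 0.28. Only 17 genes had a log2 change above 1 and 12 below -1. In the fit of all 12 libraries, 5 of 20304 genes were called raised (0.0246%) and 1 lowered (0.00493%) at an adjusted p under 0.05, while 547 and 851 genes had an unadjusted p under 0.05 in either direction. With the batch as a block 21 were raised (0.103%) and 17 lowered (0.0837%). When only the 6 libraries labelled SK-N-AS were fitted, 15 of 18066 genes were raised (0.083%) and 6 lowered (0.0332%). Those 6 libraries with the batch block gave 110 raised (0.609%) and 112 lowered genes (0.62%).

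All 6 genes called in the 12-library fit were called in the other 3 fits, in the same direction, and all 38 calls of the 12-library block fit were among the 222 of the 6-library block fit. The 222 changed in 1 direction in all 3 batches, and in 183 of them the ML210 and control libraries did not overlap. The fit that called them used these same libraries and favours such genes, so neither count is separate support. Of 13468 genes with a mean of at least 1 CPM, 2113 were higher and 3234 lower with ML210 in all 3 batches. Among all genes tested, 6.29% were higher in every ML210 library than in every control, and 9.56% were lower. Most of the 222 changes were small, with a median size of 0.34 on the log2 scale and 178 below 0.5. With library totals in place of TMM scaling this fit gave 217 raised and 73 lowered genes, so the near-even split depends on the scaling. All 110 raised genes and 73 of the 112 lowered genes were called in the same direction there. The 6-library block fit rests on 2 residual degrees of freedom. Unless another is named, log2 changes below with their standard error (SE) and adjusted p are from that fit.

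**Figure D2:**
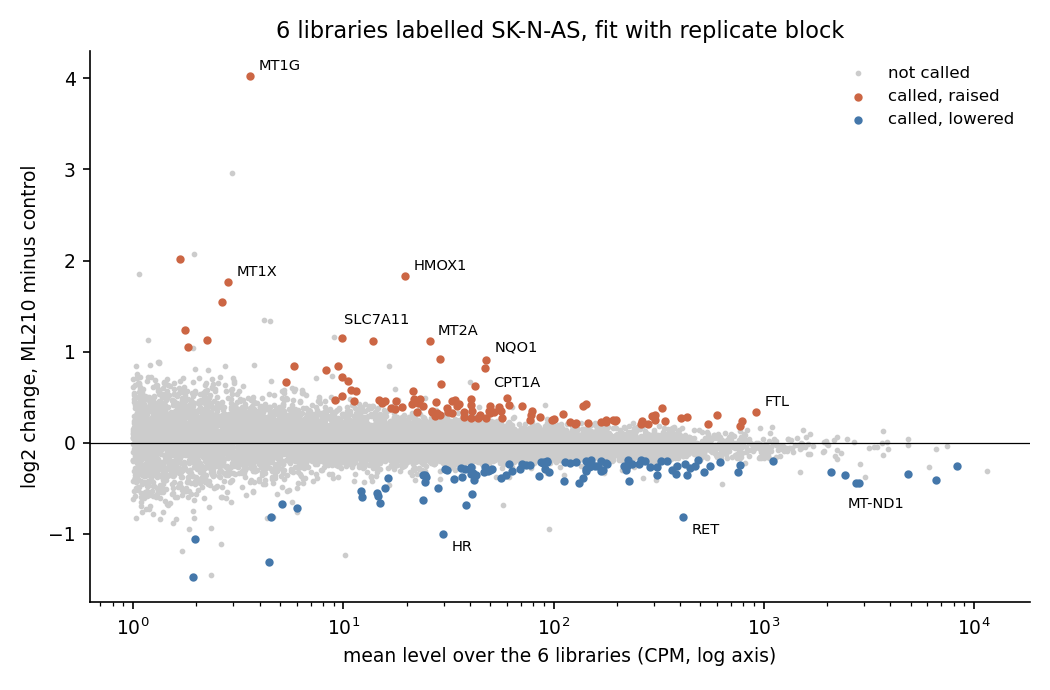
Log2 change with ML210 (vertical axis, 6-library fit with the batch block) against the mean level over the 6 libraries (horizontal axis, CPM, log axis) for genes of at least 1 CPM. Coloured points are called genes; HMOX1, MT1X and NQO1 stand above and HR and RET below the band of small changes.

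Of the 5 genes called raised with all 12 libraries, NQO1, TRIM16L and PIR are on the NRF2 target lists, while CPT1A and MT1X are not. NQO1, which reduces quinones and is a classical NRF2 target (chromosome 16, 69706996 to 69726951 in GENCODE 29 on GRCh38), stood at 32.1, 36.7 and 31.2 CPM in controls 1, 2 and 3 and at 60.0, 65.2 and 60.8 CPM with ML210. No ML210 library came near a control, and the means were 33.3 ± 2.95 and 62.0 ± 2.79 CPM (SD, n = 3). The log2 change was 0.90 ± 0.085 (SE) with adjusted p = 0.000711 in the 12-library fit, and 0.91 ± 0.053 with adjusted p = 3.11e-05 in the 6-library block fit. It passed in all 24 fits and settings run, as CPT1A and TRIM16L did.

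Among the lists of NRF2 targets, 65 genes in 6 groups, 58 were tested and 18 were raised (against 0.609% of all genes), while 0 fell. Their median log2 change was 0.14, beside -0.003 over the genes with a mean of at least 1 CPM. Of the 58, 25 did not overlap upward (6.29% of all genes tested) and 2 did not overlap downward (9.56%). The response was uneven. It reached 2 of 11 quinone and carbonyl reductases, 1 of 8 thioredoxin and peroxiredoxin genes, 3 of 17 glutathione genes, 3 of 7 NADPH genes, 3 of 8 heme and iron genes and 6 of 7 other targets.

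Of the reductases, AKR1C3, which reduces ketosteroids and prostaglandins, rose from 25.5, 18.9 and 16.3 CPM to 44.8, 35.5 and 33.0 CPM (log2 change 0.92 ± 0.065). Its close relative AKR1C1 stood at 21.5, 14.4 and 13.2 CPM in controls and 20.99, 15.4 and 14.2 CPM with ML210, and the groups overlapped. AKR1C2 changed by 0.46 with adjusted p = 0.0592. These 3 genes are related in sequence, so some of their reads may be divided wrongly. TXNRD1, the selenoprotein that reduces thioredoxin, rose by 0.28 (adjusted p = 0.00544), from 411, 378 and 381 to 492, 467 and 449 CPM. TXN (193 to 209 CPM in controls, 190.5 to 205 with ML210) and SRXN1 (1.93 to 2.39 and 2.06 to 2.48 CPM) overlapped between the treatments and were not called.

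In the glutathione group, SLC7A11, the cystine importer that feeds glutathione synthesis and protects from ferroptosis, stood at 7.78, 9.37 and 9.35 CPM in controls and 19.9, 17.8 and 19.3 CPM with ML210. All 3 treated libraries were well above the controls, and the log2 change was 1.12 (adjusted p = 0.000462). GCLM, the modifier subunit of glutamate-cysteine ligase, rose by 0.64 from 27.8, 20.2 and 21.3 to 37.5, 36.1 and 32.7 CPM. GCLC, the catalytic subunit of the same enzyme, rose by 0.28, from 34.1 to 38.9 CPM to 41.8 to 47.5 CPM. The next step of the pathway, GSS, had 72.6, 77.4 and 76.7 CPM in controls and 70.2, 73.6 and 67.4 CPM with ML210, and was not called. Glutathione reductase GSR (183 to 208 and 195 to 209 CPM) was not called either.

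HMOX1, heme oxygenase, which frees iron from heme, gave the smallest adjusted p of all (1.15e-06). It stood at 9.53, 9.22 and 7.49 CPM in controls and 34.4, 30.4 and 27.6 CPM with ML210, 3.52-fold by the means, with a log2 change of 1.83 ± 0.073. Both ferritin subunits, which store iron, rose less: FTL went from 829, 805 and 827 to 1039, 1014 and 1029 CPM (log2 change 0.34) and FTH1 from 266, 287 and 265 to 315, 344 and 341 CPM (0.30). Both have processed copies in the genome that may share reads. The iron exporter SLC40A1 (3.73 to 4.53 and 2.83 to 4.16 CPM) and the heme transporter SLC48A1 (64.6 to 70.1 and 67.6 to 73.4 CPM) were not called.

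Genes of NADPH supply and the remaining targets were called in the same direction. Malic enzyme ME1, which makes NADPH from malate, rose by 0.40, and transketolase TKT by 0.20. PGD and IDH1 overlapped. TRIM16L stood at 6.32, 6.44 and 5.59 CPM in controls and 15.3, 13.4 and 11.9 CPM with ML210 (12-library adjusted p = 0.00296). Its near-identical relative TRIM16, on the same chromosome, rose by 0.46, and reads of the pair may be shared. PIR, pirin, an iron-binding nuclear protein, stood at 30.4, 33.7 and 36.2 CPM in controls and 45.8, 54.6 and 52.9 CPM with ML210 (12-library adjusted p = 0.0188, up to 0.15 across the 24 settings). SQSTM1, the autophagy receptor p62 that also sequesters KEAP1, rose from 126, 118 and 122 to 169, 162 and 159 CPM. OSGIN1 rose by 1.24 at 0.849 to 1.38 CPM in controls and 2.28 to 2.68 CPM with ML210. The glycine transporter SLC6A9 rose by 0.84.

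Of the regulators of the pathway, most were not called. NFE2L2 stood at 58.9 to 61.1 CPM in controls and 56.8 to 59.2 CPM with ML210 (adjusted p = 0.787), and KEAP1 at 117 to 137 and 111 to 142 CPM (adjusted p = 0.924). MAFG, a small MAF partner of NRF2, was the 1 called gene of 12 regulators and rose by 0.33. BACH1, the repressor of HMOX1, changed by 0.10 with adjusted p = 0.634.

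**Figure D3:**
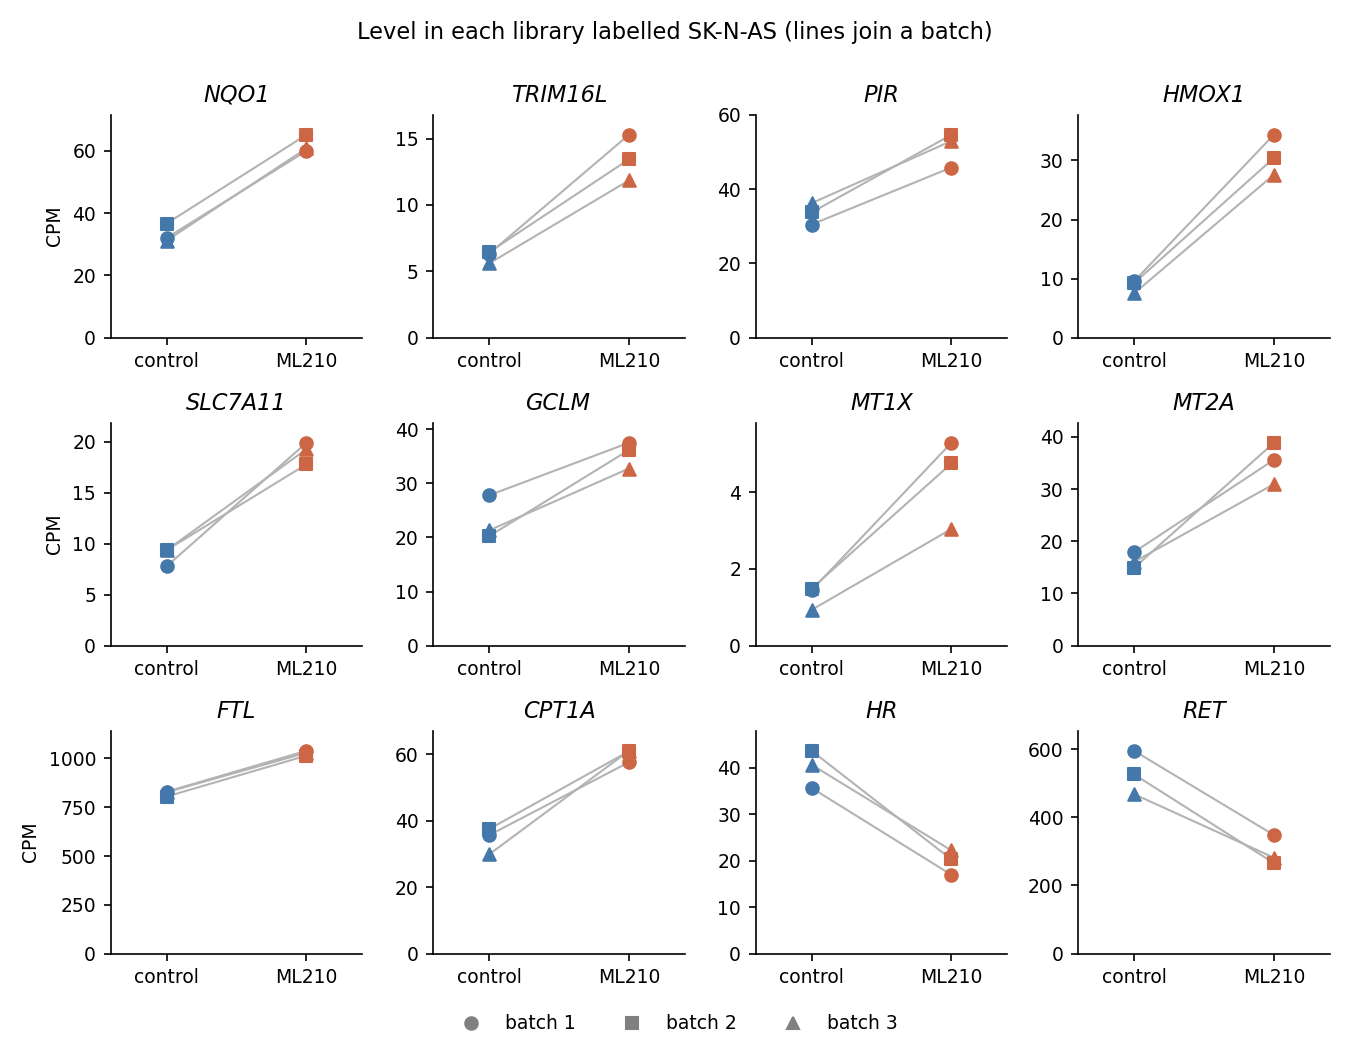
CPM of 12 genes in each of the 6 libraries labelled SK-N-AS, control at the left and ML210 at the right of each panel, with axes from 0 and a line joining each batch. The 10 raised genes go up and HR and RET go down in every batch, with no overlap between the treatments.

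Metallothionein genes rose from low levels. MT2A, a form made in most tissues, stood at 17.9, 14.9 and 16.1 CPM in controls and 35.6, 38.9 and 31.0 CPM with ML210, 2.16-fold by the means (adjusted p = 0.000351). MT1X (chromosome 16, 56682424 to 56684196) stood at 1.44, 1.49 and 0.932 CPM and rose to 5.29, 4.75 and 3.04 CPM, a log2 change of 1.75 ± 0.23 with adjusted p = 0.0188 in the 12-library fit. MT1G went from 0.13, 0.496 and 0.727 CPM to 6.00, 7.53 and 6.67 CPM (adjusted p = 0.0079, 0.0689 without batch 2). MT1F had 30 reads over the 3 controls and 279 over the ML210 libraries. Of 12 metallothionein genes 6 were tested, 4 were raised, and all 6 were higher in every ML210 library than in every control. Over all genes tested in the 6 libraries these shares were 0.609% and 6.29%. The 2 not called, MT1E (27 and 89 reads) and MT1M (5 and 49 reads), rest on few reads, and the family shares sequence. Metallothionein reads made up 0.00183, 0.00155 and 0.00162% of all counted reads in controls and 0.00466, 0.00503 and 0.00407% with ML210 (exact permutation test, two-sided p = 0.1, the smallest that 3 against 3 libraries allow). With edgeR 0 of 20 zinc transporters and sensors outside the family were called (5 higher and 1 lower at an unadjusted p under 0.05), as with DESeq2 and limma-voom, and 1, SLC30A1, passed with library totals.

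Of the lipid genes, 1 was called with all 12 libraries. This was CPT1A, the carnitine transferase that commits fatty acids to oxidation in mitochondria (chromosome 11, 68754620 to 68844410). It stood at 35.6, 37.5 and 29.9 CPM in controls and 57.6, 60.9 and 61.1 CPM with ML210. The log2 change was 0.80 ± 0.075 (12-library adjusted p = 0.000711), and no ML210 library overlapped a control. It was the only one of 21 genes of mitochondrial fatty acid oxidation called. Of 14 PPAR targets it was called with ANGPTL4, a lipoprotein lipase inhibitor that rose from 0.156, 0.721 and 1.33 CPM to 1.082, 3.26 and 3.49 CPM, higher in each batch while the groups overlapped. Of 17 fatty acid synthesis genes, ME1 rose, and SREBF1 and ACACA fell by 0.31 and 0.20. With library totals ACACA did not pass (adjusted p = 0.0564), and the desaturase FADS1 was raised. With edgeR 0 of 23 cholesterol synthesis genes were called, 2 were higher and 8 lower at an unadjusted p under 0.05, and DESeq2 called 1, MVK, lowered.

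HR was the 1 gene called lowered with all 12 libraries. HR, a nuclear corepressor and histone demethylase known from hair loss (chromosome 8, 22114415 to 22133384), stood at 35.6, 43.6 and 40.6 CPM in controls and at 17.0, 20.3 and 22.2 CPM with ML210. Its log2 change was -1.01 ± 0.14 (12-library adjusted p = 0.0188), and over the 24 settings it was called in 18, with adjusted p up to 0.168. Among 21 nuclear receptor partners, the clock repressor NR1D2 rose by 0.38.

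ATF4 drives amino acid import and synthesis when amino acids are short or the endoplasmic reticulum is stressed. Of 41 tested targets 11 were raised (against 0.609% of all genes tested) and 0 fell, with a median log2 change of 0.15. Besides SLC7A11 and SLC6A9 these were CHAC1, which degrades glutathione (9.80, 5.94 and 6.46 to 17.1, 9.65 and 10.0 CPM), the serine synthesis genes PHGDH and SHMT2, PYCR1, the transporters SLC7A5 and SLC38A2, and the regulators ATF5, CEBPB and TRIB3. Apart from CHAC1, SLC7A11 and SLC6A9 the log2 changes lay between 0.24 and 0.35. With library totals 18 of the 41 were raised. The stress chaperone HSP90B1 was the 1 raised gene of 22 in the unfolded protein response (0.18), and 4 passed with library totals. With edgeR 0 of 19 heat shock genes passed (3 higher and 1 lower at an unadjusted p under 0.05), and 2, HSPA1A and HSPB1, passed with library totals. DESeq2 called 2 raised and limma-voom 0.

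Ferroptosis regulators changed at few points. GPX4, the target of ML210, stood at 282, 266 and 261 CPM in controls and 254, 247 and 245 CPM with ML210, a log2 change of -0.10 with adjusted p = 0.242. Each ML210 library was below each control, but the change did not pass. Of 24 tested suppressors SLC7A11, TXNRD1 and AIFM2 rose. AIFM2, or FSP1, which regenerates membrane ubiquinol independently of GPX4, went from 19.1, 17.7 and 15.4 to 27.2, 25.2 and 24.1 CPM (log2 change 0.57, adjusted p = 0.00321). Of 20 promoters CHAC1 and the reductase CYB5R1 rose. ACSL4, which supplies the polyunsaturated lipids that are peroxidised, stood at 97.0 to 113 CPM in controls and 97.0 to 106 CPM with ML210. The transferrin receptor TFRC stood at 348 to 394.7 and 354 to 393.6 CPM. Of 18 selenoproteins GPX3 and TXNRD1 rose, and of 18 iron genes only the ferritins. PTGS2, often used as a ferroptosis marker, had 18 reads over the controls and 6 over the ML210 libraries.

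**Figure D4:**
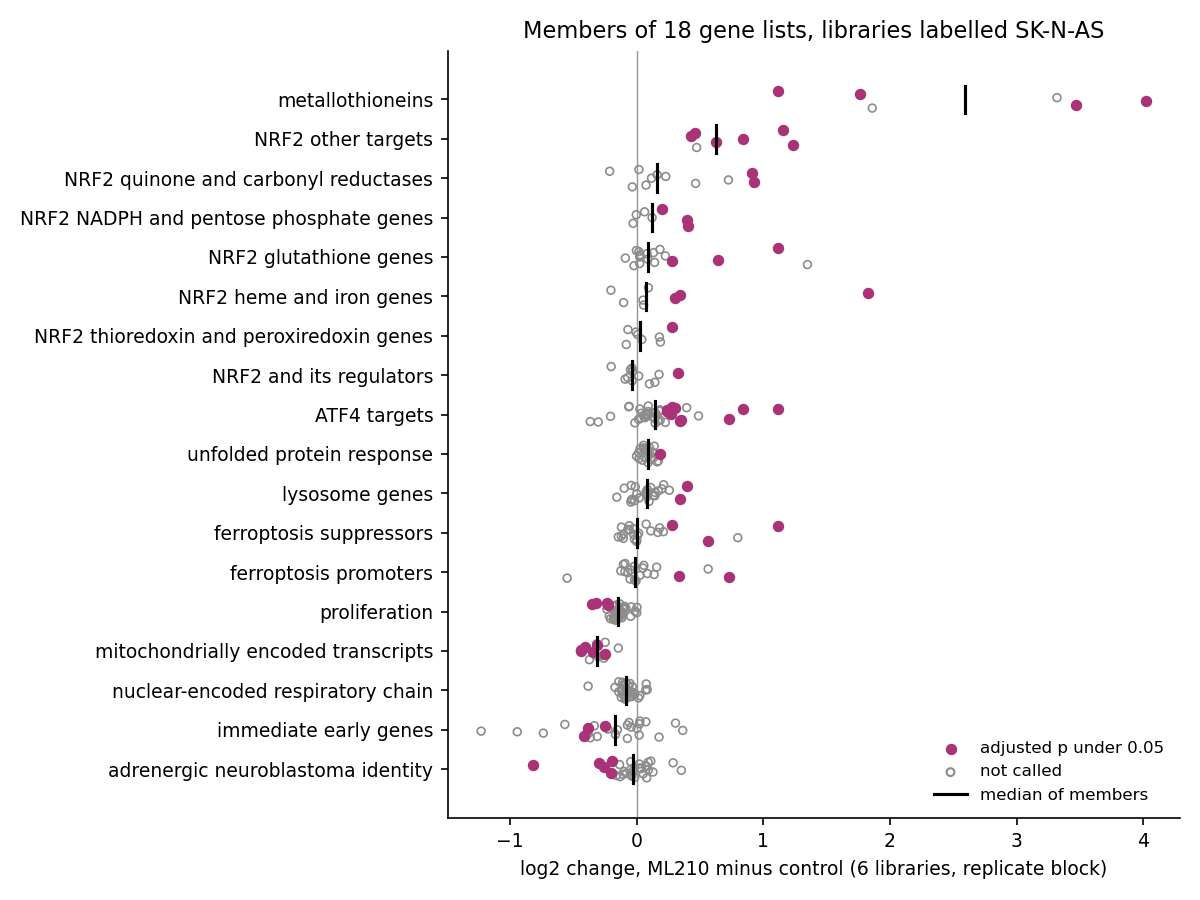
Log2 change with ML210 (horizontal axis, 6-library fit with the batch block) for each tested member of 18 gene lists, given on the vertical axis. Filled points passed an adjusted p of 0.05, open points did not, and black bars are medians; metallothioneins and the list of other NRF2 targets lie furthest to the right, and mitochondrially encoded transcripts to the left.

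All 36 genes of the proliferation list had a log2 change below 0 in the 12-library fit. Their median was -0.16, beside -0.008 over all genes tested. Of the 36, 27 were lower in every ML210 library than in every control, against 9.56% of all genes tested in the 6 libraries. Only 4 passed in the 6-library block fit, RRM2, TYMS, UHRF1 and PCNA, of which the first 3 are needed for nucleotide supply or DNA methylation and PCNA is the replication clamp. RRM2, a ribonucleotide reductase subunit, stood at 503, 468 and 487 CPM in controls and 386, 380 and 363 CPM with ML210 and fell by 0.36. With library totals 33 of the 36 were below 0, and 3 passed, while DESeq2 called 9 lowered. Outside the list, the cell cycle genes TK1, MYBL2 and UBE2T, picked after their values were seen, fell by 0.25, 0.21 and 0.28. With edgeR 0 of 30 MYC and MYCN targets, 26 p53 targets, 36 cytosolic ribosomal proteins and 32 nuclear respiratory chain genes were called. At an unadjusted p under 0.05, 1, 3, 1 and 0 of them were higher and 10, 3, 1 and 10 lower. Of these lists DESeq2 called 2 p53 targets raised, BAX and BBC3, which also passed with library totals, and limma-voom called 0.

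All 13 mitochondrially encoded transcripts had a log2 change below 0, with a median of -0.32, and 6 passed (against 0.62% of all genes called lowered). MT-ND1, a subunit of complex I, stood at 2962, 3244 and 3351 CPM in controls and 2323, 2232 and 2431 CPM with ML210 (adjusted p = 0.000788). MT-CO1 (10850 to 14580 and 9233 to 11490 CPM) overlapped and was not called. Mitochondrial reads were 4.25, 4.82 and 5.28% of counted reads in controls and 3.82, 3.58 and 4.39% with ML210, with 1 ML210 library inside the control range (exact permutation test, two-sided p = 0.2).

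Of 27 immediate early genes JUN, JUND and DUSP1 fell by 0.39, 0.25 and 0.41. FOS stood at 155, 120 and 100.3 CPM in controls and 93.6, 46.1 and 58.6 CPM with ML210, without overlap. Its adjusted p was 0.184 with edgeR, 0.00499 with limma-voom and 0.00045 with DESeq2, and 2.32e-06 with edgeR without batch 2. FOSB had 0.0797, 0.0144 and 0.0127 with the same 3 tools. Of 31 adrenergic identity genes 5 fell (against 0.62% of all genes tested): RET, SLC6A2, PHOX2A, GATA2 and TH. RET, the receptor of glial-derived neurotrophic factors, stood at 595, 526 and 468 CPM in controls and at 348, 266 and 282 CPM with ML210 (log2 change -0.82, adjusted p = 6.64e-05). The noradrenaline transporter SLC6A2 fell by 0.30 and the transcription factor PHOX2A by 0.26, whereas HAND2 and GATA3 overlapped between the treatments. The median of the list was -0.028, and 0.013 with library totals, where RET, SLC6A2 and PHOX2A still passed. Of 26 lysosome genes CTSD and TFE3 rose (5 with library totals), and of 24 hypoxia targets PFKFB4 fell. With edgeR 0 members passed among 23 mesenchymal identity genes, 23 interferon-stimulated genes, 12 NF-kB targets and 17 histone genes. At an unadjusted p under 0.05 there were 0, 4, 2 and 3 of them in either direction. DESeq2 called 1, the interferon-stimulated OAS3, lowered, and limma-voom called 0.

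Both the libraries fitted and the batch block changed which genes were called. Among the 6 libraries the block took the calls from 21 to 222. HMOX1 was called in the 6-library fit (adjusted p = 0.000485) but not in the 12-library fit (0.576) or with its batch block (0.264), although the log2 change was 1.81 to 1.83 in each. Its ML210 libraries labelled SK-N-BE(2) stood at 147.5, 58.2 and 23.5 CPM, over controls of 6.39, 5.94 and 5.12 CPM. The standard deviation of log2 CPM among those ML210 libraries was 1.33, against 0.16 among the ML210 libraries labelled SK-N-AS. SLC7A11, FTL, SQSTM1 and MT2A showed the same pattern, with the lowest SK-N-BE(2) value in batch 3, whereas NQO1 had a standard deviation of 0.12 there and 0.064 labelled SK-N-AS. AKR1C3 showed another pattern: its adjusted p was 0.322 in both fits without the block, and 0.000878 and 8.58e-05 with it in the 12-library and 6-library fits.

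**Figure D5:**
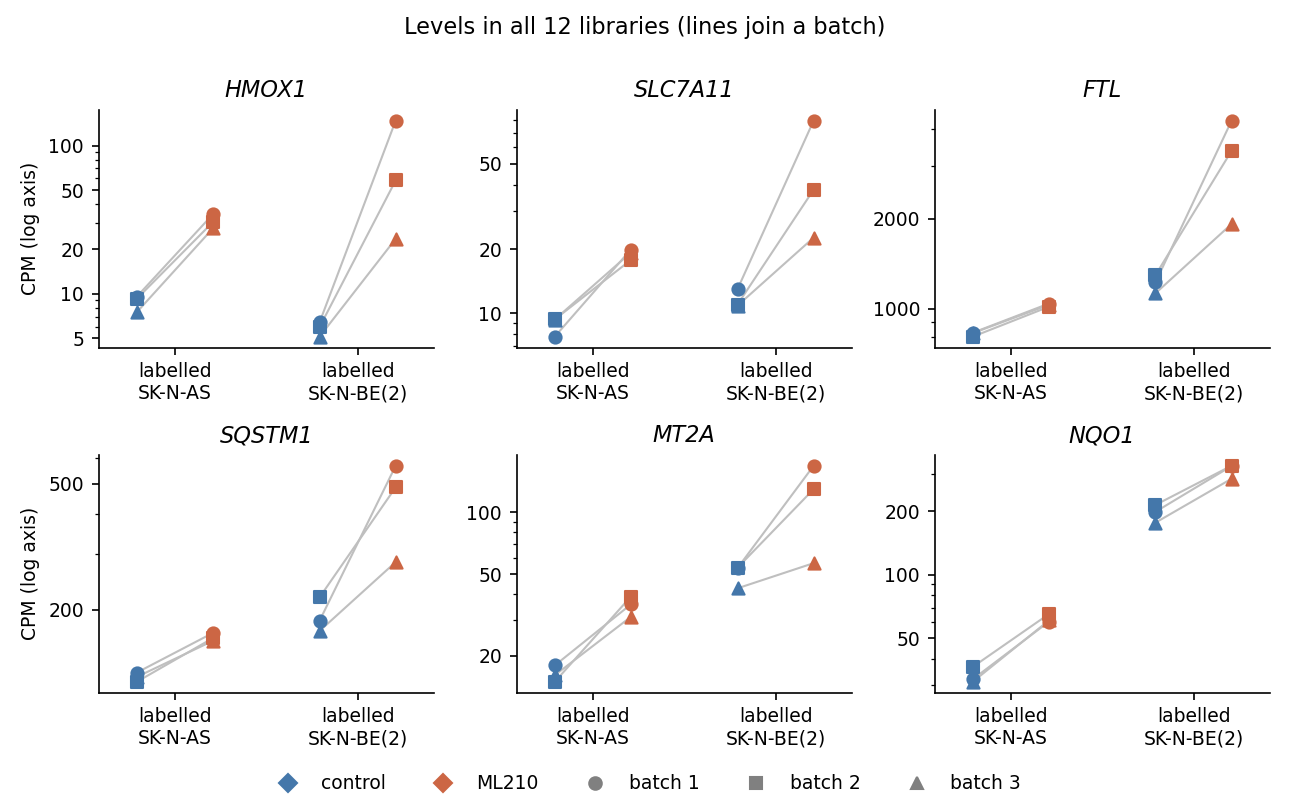
CPM (vertical axis, log axis) of 6 genes in all 12 libraries, with control and ML210 of each line label side by side and a line joining each batch. The ML210 points labelled SK-N-BE(2) spread widely for HMOX1, SLC7A11, FTL, SQSTM1 and MT2A, while those labelled SK-N-AS stay together.

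The responses of both line labels were compared directly. With all 12 libraries and no block, 1 of 20304 genes differed (0.00493%) and 0 of the 222 did. The 1 gene was GNG2, a G protein gamma subunit, at 135 to 146 CPM in the controls and 138 to 147 CPM in the ML210 libraries labelled SK-N-AS, and at 148 to 157 and 82.9 to 96.0 CPM labelled SK-N-BE(2) (difference -0.78, adjusted p = 0.00791). Of the 222 genes 180 had the same sign labelled SK-N-BE(2), where 40 of the raised and 14 of the lowered genes were called in the same direction in the 12-library fit. The matching shares over all genes tested are not given here, so whether these counts exceed the background was not tested. With the batch block 48 genes had a higher and 37 a lower response labelled SK-N-BE(2), of which 13 and 4 were among the 222, FTH1, TXNRD1 and RET included. In the fit without the block, leaving out ML210 replicate 3 labelled SK-N-BE(2) took the counts from 0 and 1 to 97 and 59 genes, 21 and 1 of them among the 222, including FTL, SQSTM1, ME1 and CTSD. With 1 line of each kind, the effect of the line and that of MYCN cannot be separated here.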

How the data were processed

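Messenger RNA was sequenced in 12 libraries, 3 in each of 4 groups, of which 6 form the comparison here. The authors deposited raw counts per gene. The submitters' processing notes name featureCounts 2.0.5, HISAT2 2.2.1, FastQC and a Trimmomatic version written as 1.4, with GRCh38 and hg38 as builds. The annotation, the strand setting and the treatment of multi-mapping reads: not given in the sources used here. MYCN reads may therefore include reads of its antisense partner MYCNOS. The table held 61552 genes. Symbols came from a reference of gene names for 61399 identifiers and from GENCODE 29 for 145, and 8 stayed without a name.

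Counts were fitted with edgeR 4.0.16 in R 4.3.3 (filterByExpr by group, TMM scaling, robust glmQLFit and glmQLFTest, two-sided, Benjamini-Hochberg adjustment over all genes tested). Every adjusted p in the text is from this test unless DESeq2 1.42.0 or limma-voom (limma 3.58.1) is named. The main fit used all 12 libraries with a coefficient per group. The other fits added the batch as a block, used only the 6 libraries labelled SK-N-AS, or both. CPM values use TMM-scaled totals. The batch label is shared by a control and an ML210 library, so same-numbered libraries are paired. Deviations from the group means of same-batch libraries correlated at 0.656, 0.134 and 0.269 over 13443 genes for batches 1, 2 and 3. Those of different batches correlated at -0.521 to 0.441. Control 2 with ML210 3 gave 0.441 and control 3 with ML210 2 gave 0.44, above the same-batch values of batches 2 and 3. Only batch 1 was matched best by its own number, so the pairing within batches 2 and 3 rests on the label. Only the batch label separates the replicates, and no label names their cultures. The p-values therefore describe the spread among these samples, which may be technical. The tests were run on simulated counts with known changes. Those counts had the same spread within a batch in every library, so the check does not cover the unequal spread between the line labels.

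The comparison, the 35 gene lists (744 members, 705 tested with 12 libraries and 672 with 6) and the tests were chosen with earlier results of these data known. Genes were named as follows: all calls of the 12-library fit, up to 15 each way with the smallest adjusted p of its block fit at 1 CPM or more, up to 10 each way that were not called, and up to 5 members of each list. Genes taken from the 6-library fits were named after their values were seen, as were the 5 promoters printed. Promoter windows matched 31 of the 38 genes called with 12 libraries and 5 of the 12 metallothioneins. The alternatives were library totals, DESeq2, limma-voom, other filters and leaving out each library. Protein sequences were not used here. Values of a few single genes are not reported here.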

Additional observations from a re-analysis of the deposited data

How the results depend on the processing

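Log2 changes of single named genes reversed in none of the settings run. Against the 12-library fit, 4930 values for named genes kept their side of the threshold, a further 4.33% of all such values passed it newly, and 15 no longer passed it. The last were of PIR, HR and MT1X, each with 1 library labelled SK-N-AS left out, apart from MT1X with limma-voom and HR without SK-N-BE(2) control replicate 2. The 5 raised and 1 lowered genes became 36 and 16 with DESeq2, 23 and 10 without a filter, 15 and 6 with only the 6 libraries, 21 and 17 with the replicate block, and 110 and 112 with both. Lowered genes were 2 without genes over 10 times higher labelled SK-N-BE(2). With 1 library left out at a time there were 3 to 10 raised and 0 to 3 lowered genes, with 3 raised without SK-N-AS control or ML210 replicate 2 and 10 without SK-N-BE(2) ML210 replicate 3. Each SK-N-AS library except control replicate 1 took the 1 lowered gene to 0 when left out, as SK-N-BE(2) control replicate 2 did.

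Alternatives from here on were chosen after seeing the data, apart from those of the difference. The 12-library fit with the replicate block gave 50 raised and 10 lowered genes with library totals, 46 and 47 with limma-voom, and 7 and 4, 13 and 4, and 8 and 10 without batches 1, 2 and 3. The 6-library fit without block gave 27 raised genes with library totals and 96 raised and 79 lowered with DESeq2, and 4 to 22 and 0 to 21 with 1 library left out. The lowest, 4 and 0, came without control replicate 3 or ML210 replicate 2, and 22 raised genes without either library of batch 1. The paired 6-library fit gave 217 and 73 with library totals, 188 and 227 with DESeq2, 411 and 426 without a filter, and 108 to 203 raised and 62 to 232 lowered without both libraries of a batch. Of its 222 genes, 106, 190 and 147 were still called without batches 1, 2 and 3, and 150 with limma-voom. The difference of the responses was 0 higher and 1 lower gene, 26 and 19 with DESeq2, 9 and 15 without a filter, 48 and 37 with the replicate block, and 0 to 97 and 1 to 59 with 1 library left out, the highest of both without SK-N-BE(2) ML210 replicate 3. The cause was not tested. Genes under about 1 CPM, such as MT1E and MT1M, are limited by their read counts.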

Other observations

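Further genes outside the gene lists were called in the 6-library fit with the batch block, 158 of the 222, and those below were picked after their values were seen. Both cytoplasmic actins fell, ACTB not with library totals (adjusted p = 0.0686): ACTB stood at 5650, 5505 and 5265 CPM in controls and 3895, 4465 and 4478 CPM with ML210, and ACTG1 at 2351, 2303 and 2322 and 1807, 1861 and 1888 CPM. TMOD1, which caps actin filaments, went from 250.1, 271 and 267 to 180, 208 and 198 CPM, and the small GTPases RHOB and RHOC and the filament proteins LIMA1 and CNN3 fell as well. Labelled SK-N-BE(2) the actins had log2 changes of 0.27 (ACTB) and 0.67 (ACTG1), opposite in sign but not called (adjusted p = 0.222 and 0.15 with 12 libraries). The direct difference of the responses passed for neither actin with 12 libraries and no block. It passed for ACTB with the batch block, and for both actins with DESeq2 or without SK-N-BE(2) ML210 replicate 3. Actin genes have many processed copies that may share reads.

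GABARAPL1, which helps build autophagosomes, rose from 5.37, 9.93 and 9.05 to 8.46, 15.1 and 15.2 CPM, higher in each batch with overlapping groups, and the receptor NBR1 rose by 0.25, as SQSTM1 did by 0.43. TP53INP2, a nuclear protein that takes part in autophagosome formation, fell from 43.8, 52.1 and 50.5 to 28.7, 35.1 and 34.6 CPM (adjusted p = 0.000618). The NRF2-related quinone reductase NQO2 rose from 33.4, 32.7 and 35.8 to 47.5, 49.1 and 44.2 CPM. PANX2, a channel protein, rose from 1.17, 1.91 and 1.04 to 3.19, 5.25 and 3.42 CPM. B4GALNT1, the enzyme that makes the gangliosides GM2 and GD2, rose from 44.6, 55.5 and 51.3 to 64.9, 74.6 and 71.1 CPM.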
